A study of Homo sapiens with 2 samples.

Results

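The cells described here are OVCAR5 tumour cells in which no transcript of CXCL8 was counted although they came from the hashed samples with the highest CXCL8 levels of the study. They numbered 148 of the 1181 cells of 5 hashed samples, a share of 12.5% (exact binomial 95% interval 10.7% to 14.6%), and 4.53% of the 3269 cells kept from the whole library. Members were chosen by their hashtag pair and by a count of 0 CXCL8 UMIs (unique molecular identifiers, each standing for a captured RNA molecule) among at least 5000 UMIs and 1000 detected genes, with at most 20% of UMIs from mitochondrial genes. The other 1033 cells of the same hashed samples, each with at least 1 CXCL8 UMI, are the cells they are set against. CXCL8 itself, and the choice of the 5 hashed samples, were thus made on measured values and are given as description only.

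OVCAR5 is a human ovarian carcinoma line. The cells carried a reporter that senses IFN-gamma and were grown as tumours in NSG-b2m-/- mice, which lack T, B and NK cells of their own. Cells of 5 tumours were digested to single cells and kept for 6 h in culture with recombinant cytokines, and the pool was sorted for CFP, a fluorescent protein carried by the tumour cells that the labels call bystander. All groups shared the cell line, the reporter, the host strain, the digestion and the sort. The labels list 15 entries in the pool: 5 with 100 ng/ml IFN-gamma plus 10 ng/ml TNF-alpha, 5 with 10 ng/ml TNF-alpha, and 5 left unstimulated. Hashtag antibodies marked the origin of each cell, and the 15 hashtag pairs found (each a tag of HTO2 to HTO4 joined to a tag of HTO5 to HTO10) are treated as 15 hashed samples. The sources used here do not tie a pair to a cytokine, so no cell is called treated or untreated, and the wording TNF-like could not be checked against a treatment.

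CXCL8 (interleukin-8) is a secreted chemokine that draws neutrophils through the receptors CXCR1 and CXCR2. TNF binds TNFR1 on epithelial tumour cells and activates NF-kB, a family of transcription factors that is held in the cytoplasm by IkB proteins such as NFKBIA until these are degraded. NF-kB then induces chemokines, cytokines, adhesion molecules and survival genes, together with its own inhibitors NFKBIA and TNFAIP3, which shut the response off again. CXCL8 is a textbook target whose promoter holds a kB site beside an AP-1 site.

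The promoters of CXCL8, of the 3 chemokines counted as lower below and of NFKBIA, an NF-kB target with a smaller difference, are shown to place the kB motifs. They are RefSeq sequences of build GRCh38.p14, the 250 bases before the annotated start, in the direction of the gene. Capitals mark matches to GGNNNTTCC (kB-like) or TGANTCA (AP-1-like) on either strand.
CXCL8, chr4:73740319-73740568, plus strand: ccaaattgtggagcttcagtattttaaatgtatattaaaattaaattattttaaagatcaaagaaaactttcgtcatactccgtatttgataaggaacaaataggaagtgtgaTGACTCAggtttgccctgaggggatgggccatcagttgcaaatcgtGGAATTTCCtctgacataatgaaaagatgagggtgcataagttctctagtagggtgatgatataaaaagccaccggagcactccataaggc
CXCL1, chr4:73869143-73869392, plus strand: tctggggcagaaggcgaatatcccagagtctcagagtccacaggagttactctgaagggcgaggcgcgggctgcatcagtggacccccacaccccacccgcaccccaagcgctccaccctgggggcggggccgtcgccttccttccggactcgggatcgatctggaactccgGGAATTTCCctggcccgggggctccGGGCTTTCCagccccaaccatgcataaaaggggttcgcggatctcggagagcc
CXCL3, chr4:74038690-74038939, minus strand: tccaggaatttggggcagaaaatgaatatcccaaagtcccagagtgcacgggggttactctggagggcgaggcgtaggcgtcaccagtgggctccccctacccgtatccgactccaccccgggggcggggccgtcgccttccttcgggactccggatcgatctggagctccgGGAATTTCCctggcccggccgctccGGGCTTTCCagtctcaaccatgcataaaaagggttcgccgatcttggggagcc
CCL20, chr2:227813592-227813841, plus strand: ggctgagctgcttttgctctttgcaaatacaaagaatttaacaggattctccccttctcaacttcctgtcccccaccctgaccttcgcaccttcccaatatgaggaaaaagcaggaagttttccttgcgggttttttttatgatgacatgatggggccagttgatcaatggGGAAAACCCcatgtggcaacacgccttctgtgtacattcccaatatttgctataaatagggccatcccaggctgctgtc
NFKBIA, chr14:35404750-35404999, minus strand: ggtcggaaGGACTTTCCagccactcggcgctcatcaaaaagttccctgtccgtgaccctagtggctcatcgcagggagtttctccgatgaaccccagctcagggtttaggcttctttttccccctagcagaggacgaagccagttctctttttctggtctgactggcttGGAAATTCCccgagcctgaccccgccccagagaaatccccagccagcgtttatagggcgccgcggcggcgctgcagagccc
The CXCL8 window held 1 kB match, GGAATTTCC, which begins 91 bases before the start, and 1 AP-1 match, TGACTCA, which begins 137 bases before it. CXCL1 and CXCL3 held the same 9 letters 78 bases before their starts and a further match, GGGCTTTCC, 53 bases before them. CCL20 held 1 match and NFKBIA 2. None of these 4 windows held the AP-1 letters. Over all 35116 promoter windows of the same length, 17.1% held the kB letters, 6.57% the AP-1 letters and 1.03% both. In the NF-kB list described below, 9 of 15 windows of the lower genes and 15 of 37 windows of the other genes at level held the kB letters, beside 21.1% of the windows of all genes tested. A match describes letters in a window and says nothing of binding.

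The 5 hashed samples were alike in how much CXCL8 they held. CXCL8 stood at 10.4, 11.6, 12.9, 9.81 and 11.3 UMIs per 10000 in HTO2+HTO6, HTO2+HTO10, HTO3+HTO5, HTO3+HTO8 and HTO4+HTO8, and at 0.170 to 8.81 in the other 10 hashed samples (median 2.09). The CXCL8-0 cells were spread over all 5, with 28 of 290 cells, 17 of 140, 7 of 45, 82 of 589 and 14 of 117 in the same order, or 9.66% to 15.6% of each. HTO3+HTO8 alone supplied 55.4% of the members, and HTO3+HTO5 supplied 7 cells, and values of HTO3+HTO5 are the least precise. Had every cell of a hashed sample held CXCL8 at that sample's mean level, counting error alone would have left 0.00459% to 0.0389% of cells at 0. This share comes from the CXCL8 counts that the rule used and assumes an equal level in all cells. It is description only, and chance was not tested. A further 96 cells held exactly 1 CXCL8 UMI and 66 held 2, while the richest cell of each sample held 66 to 127.

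Members were a little shallower than the cells they are set against. Their median was 9819 to 12628 UMIs per cell across the 5 hashed samples, against 11453 to 12958 in CXCL8-positive cells, and their median number of detected genes was 2860 to 3340, against 3200 to 3527. Median mitochondrial shares overlapped, at 12.4% to 14.6% in CXCL8-0 cells and 12.0% to 13.8% in CXCL8-positive cells. For this reason each cell was thinned at random to 5000 UMIs before levels were compared, and levels below are UMIs per 10000 UMIs after thinning. A ratio is the level in CXCL8-0 over that in CXCL8-positive cells, combined over the 5 hashed samples by the Mantel-Haenszel method, with a 95% interval. The labels do not make the hashed samples of 1 library replicates of a group, so no test was run over them. Intervals cover counting error only, the hashed samples may share a tumour, and agreement is given as the number of hashed samples with the same direction.

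The cells carried the markers of an epithelial tumour line in both states. KRT18, an epithelial keratin, stood at 21.6 to 31.9 in CXCL8-0 cells and 16.4 to 25.6 in CXCL8-positive cells, a ratio of 1.05 (1.00 to 1.10). The summed level of the 8 epithelial markers was 49.4 to 77.9 in CXCL8-0 cells and 38.8 to 59.2 in CXCL8-positive cells, although CDH1 and MUC16 were near 0 in both, with 4 and 2 UMIs in CXCL8-0 cells and 10 and 4 in CXCL8-positive cells. Defining markers of other cell types were at or near 0: CD3D, CD3E, CD2, PTPRC, CSF1R, DCN, LUM, CDH5 and the globin genes had 0 UMIs in either state. Summed levels in CXCL8-0 and CXCL8-positive cells were 0 to 0.824 and 0.263 to 0.631 for the 6 myeloid markers, all from CD68, LYZ and CD14. For the 5 fibroblast markers they were 0 to 0.286 and 0 to 0.0197, and for the 5 T and NK markers 0 and at most 0.0163. All cells came from 1 line, so no cell type that should lack a gene was at hand to set the share of cells with a UMI from free RNA. In HTO2+HTO5, the hashed sample with the lowest CXCL8 level, 11.9% of 293 cells held a CXCL8 UMI. Free RNA and transcripts of the cells themselves cannot be told apart there.

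The NF-kB response as a whole was lower in CXCL8-0 cells but was not at the bottom of the library's range. The list held 90 genes besides CXCL8. Its summed level was 112, 110, 82.3, 132 and 116 UMIs per 10000 in CXCL8-0 cells of HTO2+HTO6, HTO2+HTO10, HTO3+HTO5, HTO3+HTO8 and HTO4+HTO8, against 175, 159, 136, 178 and 169 in CXCL8-positive cells of the same hashed samples. All 5 CXCL8-0 values lay below all 5 CXCL8-positive values, and the ratio was 0.71 (0.69 to 0.72). Over all cells, 5 of the other 10 hashed samples stood at 53.8 to 64.4 for the same list and the other 5 at 267 to 350.

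Cell by cell, the distributions of both states overlapped widely. After thinning, CXCL8-0 cells held a median of 61 UMIs of the list (quartiles 38 and 79), against 86 (63 and 106) in CXCL8-positive cells. The hashed sample with the lowest CXCL8 level, HTO2+HTO5, gave a scale, with a median of 28 and a 95th percentile of 59.8. Of the CXCL8-0 cells, 75 of 148 (50.7%, 42.3% to 59.0%) lay above that 95th percentile, against 812 of 1033 (78.6%, 76.0% to 81.1%) of the CXCL8-positive cells. At or below its median lay 19 of 148 (12.8%, 7.91% to 19.3%) and 21 of 1033 (2.03%, 1.26% to 3.09%).

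**Figure D1:**
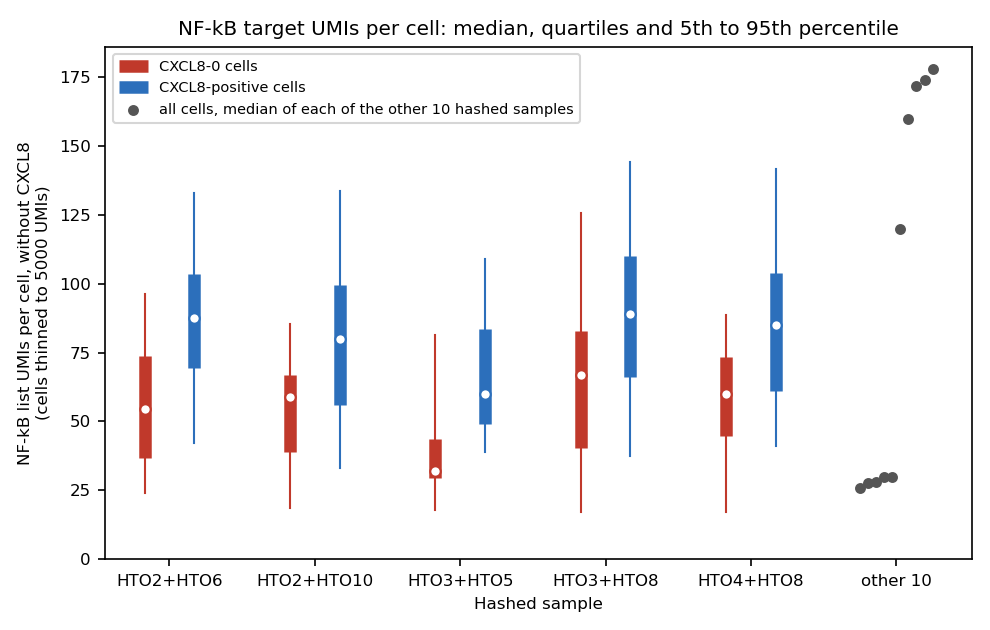
NF-kB list UMIs per cell without CXCL8, after thinning to 5000 UMIs, by hashed sample: open circles are medians, thick bars quartiles and thin lines the 5th to 95th percentile, for CXCL8-0 cells (left of each pair) and CXCL8-positive cells (right). Grey points are the medians of the other 10 hashed samples. Medians were 32 to 67 in CXCL8-0 cells and 60 to 89 in CXCL8-positive cells. The thin lines overlap in every hashed sample, and the thick bars in all but HTO3+HTO5.

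Single genes were sorted by a fixed reading of the ratio. A gene counted as lower or higher when its ratio was at most 1/1.5 or at least 1.5 with the same direction in 5 of 5 hashed samples, as near 1 when its whole interval lay between 0.8 and 5/4, and as undecided otherwise. Of the 2888 genes with a mean level of at least 0.5, 117 were lower (4.05%), 21 were higher (0.727%) and 417 were near 1 (14.4%). Of the 90 list members 48 reached that level, and 17 of them were lower (35.4%), 0 were higher, 2 were near 1 and 29 were undecided. The 17 made up 14.5% of all 117 lower genes. The median ratio was 0.69 over the 48 members and 0.95 over all genes, and 40 of the 48 had a ratio under 1 (83.3%), against 59.4% of all genes. Levels in the 5 hashed samples did not overlap for 12 of the 48, all lower, beside 3.01% of all genes. The level filter used both states together, but most cells are CXCL8-positive, so genes high in those cells passed more easily.

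**Figure D2:**
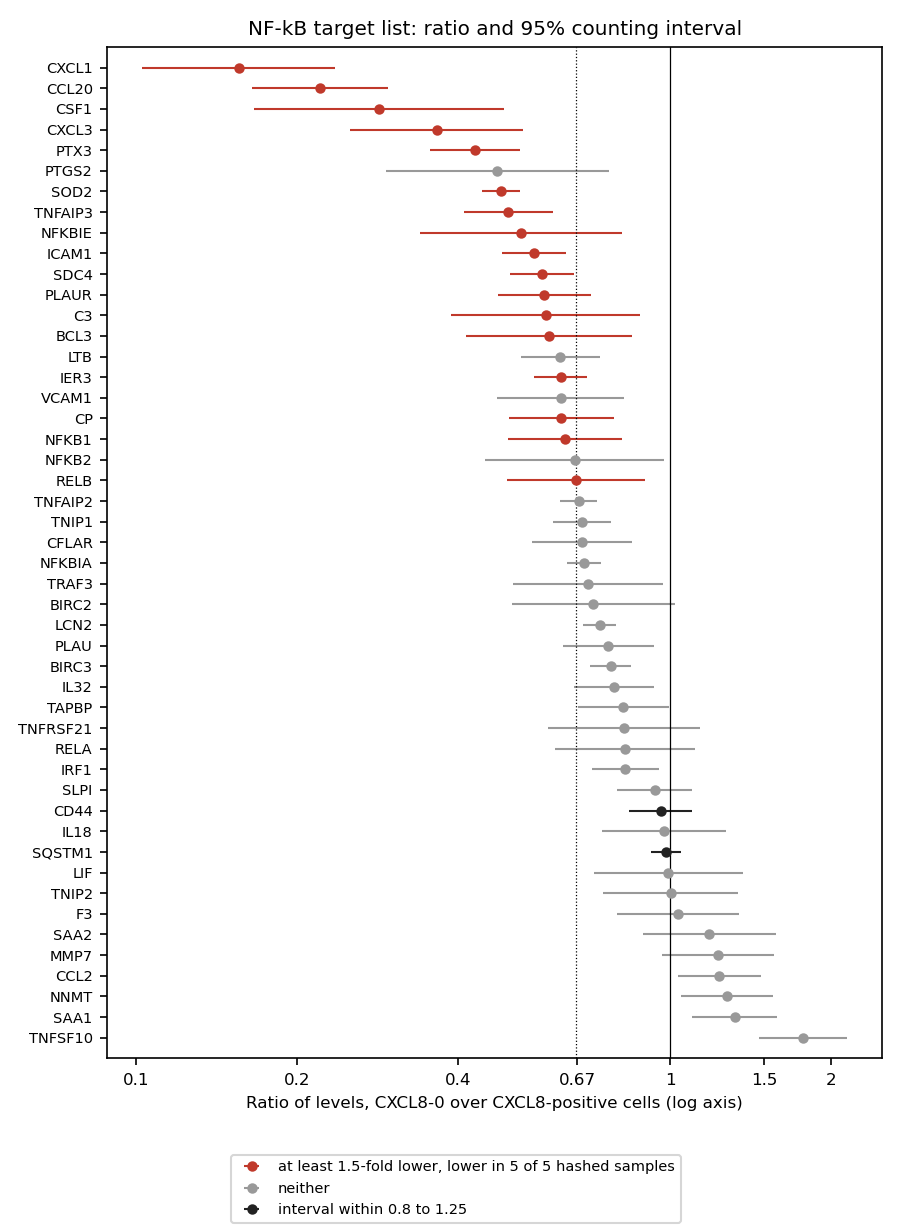
Ratio of levels in CXCL8-0 over CXCL8-positive cells (log axis) for the 48 NF-kB list members whose mean level reached 0.5, with 95% counting intervals. CXCL1 has the lowest ratio, 0.16, and the solid line marks a ratio of 1. Red marks the 17 lower genes, black CD44 and SQSTM1 near 1, and grey the 29 undecided.

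Chemokines of the same kind as CXCL8 were lower, CXCL1 with the lowest ratio of all 2888 genes. CXCL1, CXCL2 and CXCL3 are, like CXCL8, ELR-motif chemokines that act on neutrophils through CXCR2, and all lie with it on chromosome 4. CXCL1 stood at 0.286, 0, 0.857, 0.341 and 0.286 in CXCL8-0 cells, in the order of hashed samples given above, against 2.25, 1.5, 1.16, 2.12 and 1.71 in CXCL8-positive cells. No value of the first set reached the second, and the ratio was 0.16 (0.10 to 0.24). CXCL3 stood at 0.286, 0.824, 0, 0.366 and 0.429 in CXCL8-0 cells and at 1.17, 0.878, 0.632, 1.18 and 0.699 in CXCL8-positive cells, a ratio of 0.37 (0.25 to 0.53) with overlapping levels. CXCL2 was under the level filter, with 3 UMIs in CXCL8-0 cells and 151 in CXCL8-positive cells, a ratio of 0.14 (0.04 to 0.43). Reads of these 3 similar genes may be shared between them, since no source used here gives the counting rule for such reads.

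CCL20, the chemokine that draws CCR6-bearing lymphocytes and dendritic cells, was low in the same cells. Its level was 0.357, 0.941, 0.857, 0.683 and 0.286 in CXCL8-0 cells, against 2.49, 3.02, 1.79, 2.97 and 2.74 in CXCL8-positive cells. The levels of both states did not overlap, and the ratio was 0.22 (0.16 to 0.30). At least 1 UMI of CCL20 was left after thinning in 14.9% of CXCL8-0 cells and 44.1% of CXCL8-positive cells, or 27.0% and 59.1% before thinning. For CXCL1 the shares were 12.8% and 47.3% after thinning and 24.3% and 66.3% before. CXCL10, an attractant of T cells better known as an interferon target, was under the level filter with 12 UMIs in CXCL8-0 cells and 310 in CXCL8-positive cells, a ratio of 0.29 (0.16 to 0.52).

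CCL2, the monocyte attractant, did not go with the other chemokines. It stood at 1.5, 0.706, 0.571, 2.76 and 0.143 in CXCL8-0 cells and at 1.37, 2.02, 0.842, 1.66 and 1.11 in CXCL8-positive cells. It was higher in 2 of 5 hashed samples and lower in 3, with a ratio of 1.24 (1.03 to 1.48) that was 0.64 without HTO3+HTO8. The 5 richest cells held 65.0% of the CCL2 UMIs of all 148 members.

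**Figure D3:**
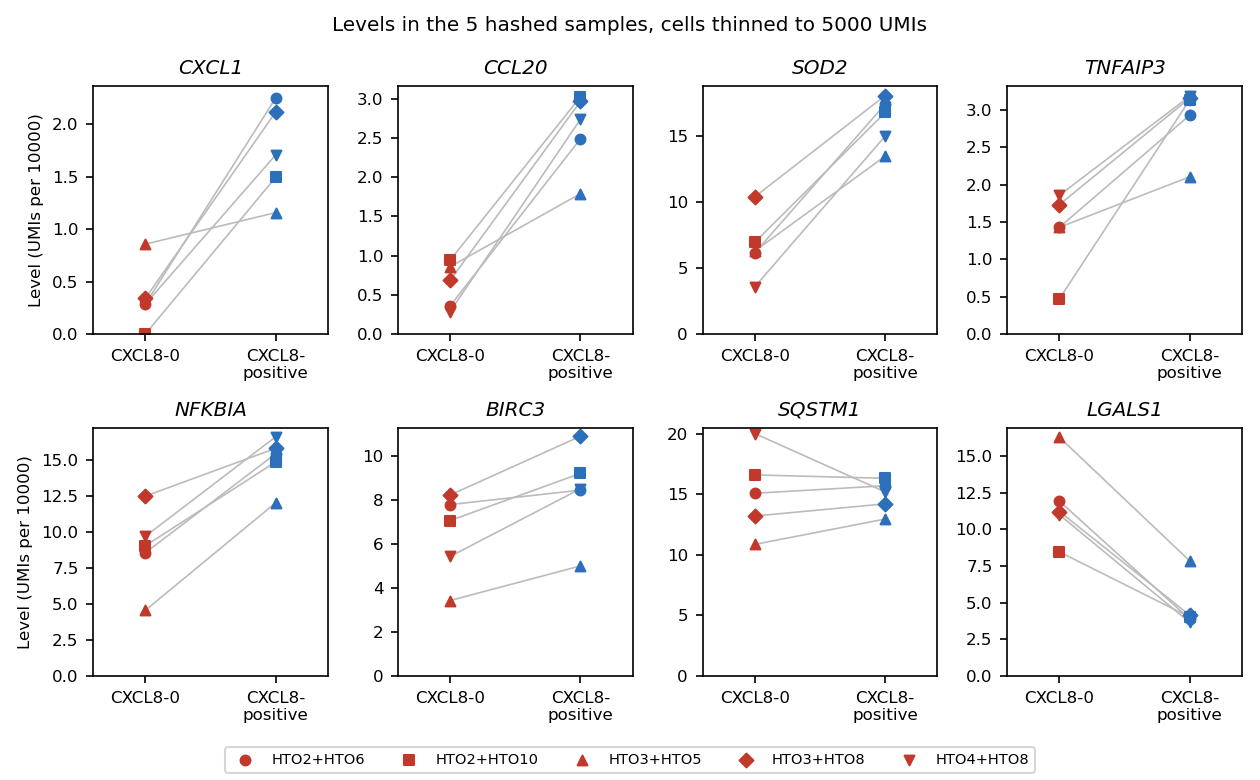
Levels (UMIs per 10000 after thinning) of 8 genes in CXCL8-0 cells (left, red) and CXCL8-positive cells (right, blue), 1 symbol per hashed sample with lines joining the same sample. CXCL1, CCL20, SOD2 and TNFAIP3 are lower in all 5 CXCL8-0 sets, with no overlap of the groups, SQSTM1 shows no common direction, and LGALS1 is higher in all 5.

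Cytokines were mixed. CSF1, the macrophage growth factor, was the only one of the 6 members at level that was lower, at 0 to 0.286 in CXCL8-0 cells against 0.576 to 0.878 in CXCL8-positive cells and a ratio of 0.29 (0.17 to 0.49) on 14 and 345 UMIs, or 0.16 without HTO3+HTO8. LTB, lymphotoxin beta, had a ratio of 0.62 (0.52 to 0.74) but was lower in 3 of 5 hashed samples, and it was 0.94 without HTO3+HTO8. IL32 had 0.78 (0.66 to 0.93), or 1.21 at 10% mitochondrial UMIs, IL18 0.97 (0.74 to 1.27) and LIF 0.99 (0.72 to 1.37). TNFSF10, which encodes the death ligand TRAIL and is also an interferon target, stood at 0.929, 0.824, 0.571, 2.66 and 0.714 in CXCL8-0 cells and at 1.05, 0.358, 0.211, 1.33 and 0.505 in CXCL8-positive cells. It was higher in 4 of 5 hashed samples, with a ratio of 1.77 (1.46 to 2.14), and was 1.22 without HTO3+HTO8.

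The feedback inhibitors of NF-kB had ratios between 0.50 and 1.00, and 3 of the 6 at level were lower. NFKBIA, the IkB-alpha protein that captures NF-kB, stood at 8.57, 9.06, 4.57, 12.5 and 9.71 in CXCL8-0 cells, against 15.5, 14.9, 12.1, 15.8 and 16.6 in CXCL8-positive cells. It was lower in 5 of 5 hashed samples with a ratio of 0.69 (0.64 to 0.74), just short of the fold used here. At least 1 thinned UMI of NFKBIA was seen in 80.4% of CXCL8-0 cells and 95.3% of CXCL8-positive cells (89.2% and 97.9% before thinning). TNFAIP3, the ubiquitin-editing enzyme A20, showed a larger difference, at 1.43, 0.471, 1.43, 1.73 and 1.86 in CXCL8-0 cells against 2.93, 3.14, 2.11, 3.16 and 3.18 in CXCL8-positive cells. These sets did not overlap, and the ratio was 0.50 (0.41 to 0.60). NFKBIE, a further IkB protein, had a ratio of 0.52 (0.34 to 0.81), or 0.30 without HTO3+HTO8, and TNIP1, an A20 partner, had 0.68 (0.60 to 0.78) and was lower in 4 of 5. TNIP2, which binds A20 as well, stood at 1.00 (0.75 to 1.34). After thinning, TNFAIP3 was seen in 42.6% of CXCL8-0 cells and 66.7% of CXCL8-positive cells, and 58.1% and 84.8% before.

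Of the NF-kB subunit list, 2 of 4 members at level were lower. NFKB1, which encodes p105 and p50, was at 0.714 to 1.21 in CXCL8-0 cells and 1.26 to 1.51 in CXCL8-positive cells, a ratio of 0.63 (0.50 to 0.81). RELB had 0.67 (0.49 to 0.90), which turned to 1.28 where cells were held to 10% mitochondrial UMIs, and BCL3, an atypical IkB protein of the feedback list, had 0.59 (0.42 to 0.85). RELA, the p65 subunit, which is not itself a strong NF-kB target, had 0.82 (0.61 to 1.11), and NFKB2 had 0.66 (0.45 to 0.98) with 3 of 5 hashed samples lower.

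Among survival genes only IER3 was lower by the fold used. It stood at 3.71 to 6.43 in CXCL8-0 cells and 6.15 to 8.89 in CXCL8-positive cells, with a ratio of 0.62 (0.56 to 0.70). BIRC3, the inhibitor of apoptosis cIAP2, stood at 7.79, 7.06, 3.43, 8.22 and 5.43 in CXCL8-0 cells and at 8.44, 9.20, 5.00, 10.9 and 8.50 in CXCL8-positive cells. It was lower in every hashed sample, with a ratio of 0.77 (0.71 to 0.84). CFLAR, which blocks caspase-8, had 0.68 (0.55 to 0.85), also lower in 5 of 5.

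The summed surface list stood at 16.0 to 17.1 in CXCL8-0 cells and 23.5 to 24.8 in CXCL8-positive cells. ICAM1, the adhesion molecule that binds leukocyte integrins, stood at 0.714 to 3.66 in CXCL8-0 cells and 3.11 to 5.83 in CXCL8-positive cells, a ratio of 0.56 (0.48 to 0.64). SDC4, a heparan sulfate proteoglycan, had 0.58 (0.50 to 0.66) and PLAUR, the urokinase receptor, 0.58 (0.47 to 0.71), both with no overlap. CD44, the hyaluronan receptor, was near 1 at 0.96 (0.84 to 1.10), with 2.93 to 4.29 in CXCL8-0 cells and 3.03 to 4.26 in CXCL8-positive cells. F3, tissue factor, had 1.03 (0.79 to 1.35), but 53.1% of its UMIs in members lay in 5 cells.

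Of the secreted proteins and enzymes, 4 of 14 members at level were lower and 1 was near 1. SOD2, the mitochondrial superoxide dismutase, stood at 6.14, 6.94, 6.29, 10.4 and 3.57 in CXCL8-0 cells, against 17.4, 16.8, 13.5, 18.1 and 15 in CXCL8-positive cells. The sets lay apart, with a ratio of 0.48 (0.44 to 0.52), yet SOD2 was seen in 83.8% of thinned CXCL8-0 cells, beside 94.6% of CXCL8-positive cells (91.9% and 97.6% before thinning). PTX3, a pentraxin of innate immunity, had 0.43 (0.35 to 0.52), and C3 and CP, the complement protein and ceruloplasmin, had 0.58 (0.39 to 0.88) and 0.63 (0.50 to 0.79), with CP at 0.41 without HTO3+HTO8. LCN2, the siderophore-binding lipocalin, had 0.74 (0.69 to 0.79) and IRF1, a transcription factor shared with the interferon response, 0.82 (0.71 to 0.95), both lower in 5 of 5, with IRF1 at 1.27 where cells were held to 10% mitochondrial UMIs. SQSTM1, the autophagy receptor p62, was at 15.1, 16.6, 10.9, 13.2 and 20.0 in CXCL8-0 cells and at 15.7, 16.3, 12.9, 14.2 and 15.2 in CXCL8-positive cells, with a ratio of 0.98 (0.92 to 1.05). The acute-phase genes SAA1, 1.32 (1.10 to 1.59), and SAA2, 1.18 (0.89 to 1.57), and NNMT, a nicotinamide methyltransferase, 1.28 (1.05 to 1.56), had ratios above 1 and were higher in 3, 4 and 3 of 5 hashed samples. SAA1 and SAA2 are near-identical, so their UMIs may be exchanged.

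Read over the whole list, 17 targets were lower by the fold, and a further 15 of the 29 undecided had intervals wholly below 1. Of those 29, 6 were lower in 5 of 5 hashed samples with ratios of 0.67 to 0.82 (TNFAIP2, CFLAR, NFKBIA, LCN2, BIRC3 and IRF1). Intervals spanned 1 for 10 of the undecided, which does not show that these genes were equal in both states, and lay above 1 for 4 (TNFSF10, SAA1, NNMT and CCL2). SQSTM1 and CD44 were the members whose intervals kept within 0.8 to 5/4. The 42 members under the level filter had 29 ratios below 1 and 12 above, with the interval below 1 for 8 and above 1 for 2, and 1 member had no UMI in either state.

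Part of the list was ordered along the number of CXCL8 UMIs. Cells were binned by CXCL8 UMIs left after thinning, with 237 cells at 0, 165 at 1, 298 at 2 to 4 and 481 at 5 or more. Of the 48 list members at level, 22 were higher in each bin than in the one before, 32 had their lowest level in the bin at 0 and 37 their highest at 5 or more. The same orderings were not counted over all genes tested. The bin at 0 holds all 148 members, so these counts partly repeat the contrast above and are description only. CXCL1 stood at 0.540, 0.994, 1.45 and 2.89 over these bins, CCL20 at 0.641, 1.79, 2.17 and 3.90, and SOD2 at 9.38, 12.6, 14.6 and 21.7. NFKBIA was at 10.7, 13.8, 15.3 and 17.3, a narrower span, while BIRC3, at 7.76, 9.38, 9.18 and 10.2, and ICAM1, at 3.10, 4.84, 4.52 and 6.36, were not ordered in the middle bins. SQSTM1 was at 14.3, 14, 14.6 and 15.5. LGALS1 ran the other way, at 8.75, 6.23, 5.07 and 2.78. Cells just inside and just outside the rule were grouped by their CXCL8 UMIs before thinning, with levels taken after thinning. The NF-kB list stood at 122 in the 148 cells with 0 CXCL8 UMIs, 139 in the 96 with 1 and 140 in the 66 with 2, and CXCL1 at 0.311, 0.854 and 1.12.

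**Figure D4:**
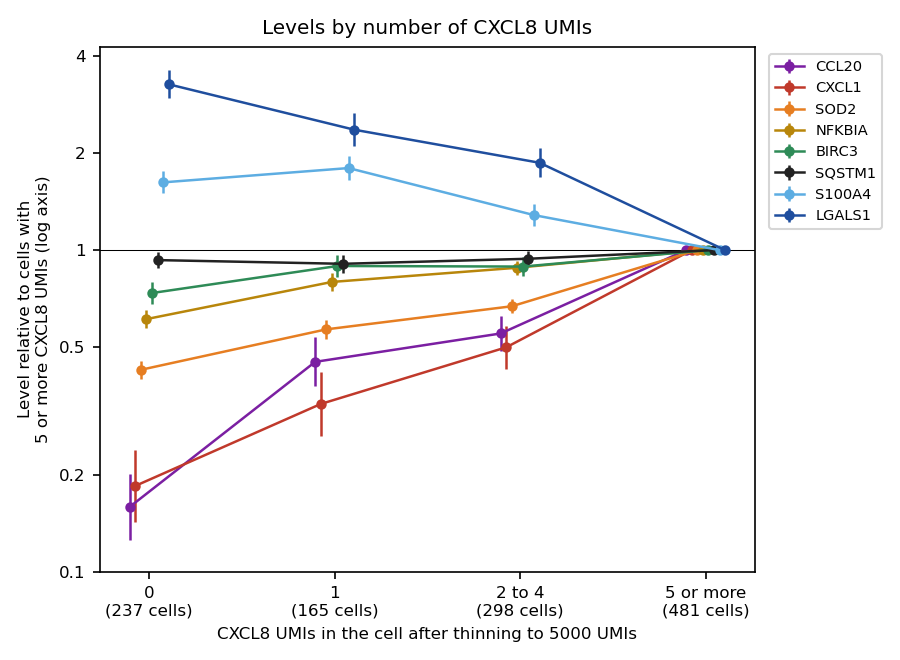
Levels of 8 genes relative to cells with 5 or more CXCL8 UMIs (log axis), in cells binned by CXCL8 UMIs after thinning, with 95% counting intervals. CCL20 and CXCL1 have the steepest lines and lie below 0.2 at 0 CXCL8 UMIs, SQSTM1 is nearly level, and LGALS1 and S100A4 lie above 1.

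Outside the list, several genes of a growth factor pathway were lower. AREG and EREG, ligands of the epidermal growth factor receptor, stood at 3.37 to 11.9 and 3.02 to 5.57 in CXCL8-0 cells, against 9.74 to 19.1 and 4.37 to 11.3 in CXCL8-positive cells. Their ratios were 0.47 (0.43 to 0.52) and 0.60 (0.53 to 0.68), and that of the receptor, EGFR, was 0.65 (0.55 to 0.76), with 2.00 to 2.71 in CXCL8-0 cells and 3.37 to 4.47 in CXCL8-positive cells. Of 6 members at level in a list of 13 drawn up around these genes after their values were seen, 4 were lower and 0 higher, beside 4.05% and 0.727% of all genes tested, a count that the choice of the list itself favours. CEBPD, a transcription factor of the acute-phase response, also singled out afterwards, had a ratio of 0.52 (0.44 to 0.61) with no overlap. Of 44 ribosome biogenesis genes listed afterwards, 32 were at level, 8 were lower and 30 had a ratio under 1, beside 4.05% and 59.4% of all genes tested. Among them was NOP56, a nucleolar protein, at 0.57 (0.47 to 0.69).

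The 10 lowest ratios among all lower genes belonged to CXCL1, CCL20, AKR1C2, CSF1, STK10, CXCL3, GALNT5, SLC2A6, NUDCD1 and IFNAR2. AKR1C2, an aldo-keto reductase with near-identical paralogs, had a ratio of 0.24 (0.13 to 0.45) on 10 UMIs in CXCL8-0 cells and 323 in CXCL8-positive cells. SLC2A6, a sugar transporter, had 0.39 (0.25 to 0.61), and IFNAR2, a subunit of the type I interferon receptor, 0.43 (0.29 to 0.64).

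Higher genes were few and included a lectin and a cytoskeletal gene. LGALS1, the secreted lectin galectin-1, stood at 11.9, 8.47, 16.3, 11.2 and 11 in CXCL8-0 cells, against 3.88, 4.02, 7.84, 4.14 and 3.65 in CXCL8-positive cells. The sets did not overlap, and the ratio was 2.68 (2.47 to 2.90). S100A4, a calcium-binding protein linked to motility, had 1.64 (1.52 to 1.76), and VIM, the intermediate filament vimentin, named after its values were seen, had 1.52 (1.45 to 1.60) with 21.9 to 29 in CXCL8-0 cells and 14 to 18.2 in CXCL8-positive cells. CD74, the MHC class II invariant chain, had 1.76 (1.35 to 2.28). HSPA1A, a heat shock protein that shares nearly all of its sequence with HSPA1B, had the highest ratio, 3.21 (2.64 to 3.90), but 5 cells held 64.4% of its UMIs in members. Without cells holding 3 or more UMIs of HSPA1A and HSPA1B, which are 9 members and 12 CXCL8-positive cells, its ratio was 0.79. That removal was chosen after seeing the data. It drops cells by counts of the gene itself, 6.08% of members and 1.16% of the others, so a fall in the ratio was set in advance.

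**Figure D5:**
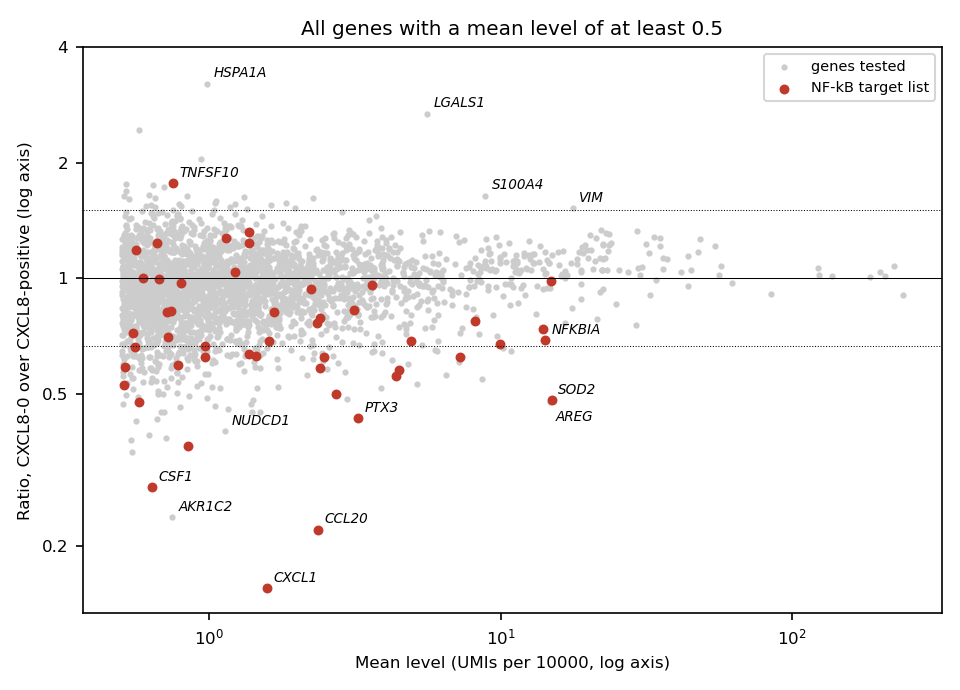
Ratio of levels in CXCL8-0 over CXCL8-positive cells against mean level (both log axes) for the 2888 genes tested, with NF-kB list members in red. CXCL1 and CCL20 lie lowest and HSPA1A and LGALS1 highest, and dotted lines mark ratios of 1/1.5 and 1.5.

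Other responses differed less or unevenly. Over all cells the summed IFN-gamma response list was at 11.3 to 17.2 in the 5 hashed samples. Of the other 10, 5 stood at 6.58 to 9.96 and 5 at 210 to 307. Within the 5 hashed samples described here, the list stood at 10.7 to 15 in CXCL8-0 cells and 11.4 to 17.6 in CXCL8-positive cells. The ratio was 0.81 (0.76 to 0.86), and the list was lower in 5 of 5 hashed samples. Of its 9 members at level, 2 were lower and 7 had a ratio under 1, beside 4.05% and 59.4% of all genes tested. The type I interferon list had a ratio of 1.04 (1.006 to 1.07), with 4 of 7 members near 1 and 0 lower, beside 14.4% and 4.05% of all genes tested. Immediate-early genes, which report on AP-1 and MAP kinase signals, had 0.92 (0.86 to 1.00) with 0 of 7 lower, and FOSL1 and JUN stood at 0.86 (0.74 to 1.02) and 0.88 (0.73 to 1.08). Of the mRNA decay and MAP kinase list 0 of 4 were lower, with a summed ratio of 0.92 (0.85 to 0.99). Of the TNF receptor pathway list, 4 members were at level and 0 were called, with TNFRSF1A, the main TNF receptor of epithelial cells, at 0.65 (0.47 to 0.88) and lower in 4 of 5. Beside 4.05% lower and 0.727% higher of all genes tested, a count of 0 in lists this short says little about them.

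The S phase list, with no member at level, had a ratio of 0.84 (0.72 to 0.98), and the other cell state lists had summed ratios above 1. The list for amino acid stress and unfolded proteins had a ratio of 1.11 (1.05 to 1.17), the heat shock list 1.13 (1.09 to 1.17) and the hypoxia and glycolysis list 1.12 (1.08 to 1.15), the last higher in 5 of 5 hashed samples, with GAPDH at 1.30 (1.23 to 1.36). Of the 10 hypoxia and glycolysis members at level, 6 had a ratio under 1, beside 59.4% of all genes tested. Their median ratio was 0.97. Of them 4 were near 1 and 0 were called lower or higher, beside 14.4% near 1, 4.05% lower and 0.727% higher of all genes tested. The G2/M list had 1.81 (1.61 to 2.04), at 11.6, 4.47, 4.29, 2.76 and 0.571 in CXCL8-0 cells and 1.76, 3.72, 1.63, 2.49 and 3.20 in CXCL8-positive cells. Cells with at least 3 thinned G2/M UMIs were 16 of 148 CXCL8-0 cells (10.8%) and 81 of 1033 CXCL8-positive cells (7.84%). Stressed cells were 33.8% of CXCL8-0 and 36.9% of CXCL8-positive cells. Without G2/M and stressed cells, which leaves fewer cells, the NF-kB list ratio was 0.72 and 8 members were lower.

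In the other 10 hashed samples the same contrast, over 958 CXCL8-0 and 789 CXCL8-positive cells, gave ratios below 1 for the NF-kB list and some of its members and a different picture for the higher genes. These 10 include 5 at low and 5 at high levels of the NF-kB and IFN-gamma lists, and the ratios combine both kinds. The NF-kB list had a ratio of 0.84 (0.83 to 0.85) and was lower in 8 of 10 hashed samples. PTX3 had 0.41 (0.34 to 0.49), CXCL1 0.35 (0.26 to 0.47) and CCL20 0.35 (0.27 to 0.44), and SOD2 had 0.77 (0.73 to 0.80). LGALS1 was at 1.19, S100A4 at 1.00 and VIM at 1.04 there, and CD74 was at 0.73 (0.66 to 0.81). Many cells of those hashed samples held 0 CXCL8 UMIs at a mean level too low to expect one, so the 2 sets of ratios are given side by side and the difference between them was not tested.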

How the data were processed

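The authors deposited unnormalized UMI counts for 36601 genes and 10 hashtags in 5269 barcodes of 1 pooled 10x Genomics 3' library and its hashtag library. The matrix names Cell Ranger 5.0.1, per the file headers, whereas Cell Ranger 2.1.1 and GRCh38 stand in the labels, per the submitters' processing notes. How barcodes were called and strand was handled is not given in the sources used. The 2 highest hashtags of a cell made its pair where the lower of them had 10 or more counts and 3 or more times the next one, which left 341 kept cells without a pair. No doublet caller was run, so doublets inside a hashed sample remain. Counts were thinned to 5000 UMIs per cell (numpy 2.4.6, seed 1), leaving 740000 UMIs of CXCL8-0 and 5165000 of CXCL8-positive cells. Ratios are Mantel-Haenszel rate ratios with Greenland-Robins intervals, and shares carry exact binomial intervals (scipy 1.17.1), all at 95% and for counting error only. The script was tested on simulated data.

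Members and gene lists were chosen with earlier results of these data known, and the growth factor and ribosome biogenesis lists after these values were seen. Genes named were CXCL8, NF-kB list members at level, the 10 lowest and 10 highest called ratios, and the 2 most abundant members of other lists. Some genes that this rule selects are not reported here. Others are named as chosen afterwards or because a list's account turns on them. Promoters matched by symbol for 11 of the 17 lower list members and 24 of the other members at level. Alternatives covered depth, definitions, filters, weighting, cell states and each hashed sample left out.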

Additional observations from a re-analysis of the deposited data

Results flagged for a closer look

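In groups of 5 hashed samples, 62 sets of levels were checked for a sample far from the others, and 4 stood out, all in HTO3+HTO5, the hashed sample with 7 CXCL8-0 and 38 CXCL8-positive cells. Chance marks about 1 in 20 such sets. In CXCL8-positive cells of HTO3+HTO5 the summed NF-kB cytokine list was at 6.11, below 9.19 to 10.3 in the other 4 hashed samples. TNFAIP3 was at 2.11 there, below 2.93 to 3.18, and LGALS1 at 7.84, above 3.65 to 4.14. In CXCL8-0 cells of HTO3+HTO5 the summed NF-kB surface protein list was at 16.0, below 16.8 to 17.1.

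CXCL8 was also counted in barcodes that the filters removed. The 722 removed barcodes of the same 5 hashtag pairs held CXCL8 at 6.92 UMIs per 10000 and the NF-kB list at 115, and 38.4% of them had no CXCL8 UMI, at a median of 4420 UMIs and 27.4% mitochondrial UMIs.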

How the results depend on the processing

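The NF-kB list ratio, 0.71, was below 1 under all 18 alternatives run, and so was every ratio of CXCL1, CCL20, SOD2, PTX3 and TNFAIP3. It was 0.73 with CXCL8-0 defined on thinned counts, 0.68 against cells with 3 or more CXCL8 UMIs, 0.68 with hashed samples weighted equally, 0.74 at 10% mitochondrial UMIs, 0.72 without G2/M and stressed cells and, chosen after seeing the data, 0.74 without cells holding SOX9-AS1, MBNL2 or NFATC2. Leaving out each hashed sample gave 0.66 to 0.72, the lowest without HTO3+HTO8.

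Lower list members numbered 7 at a fold of 2, 11 at 10% mitochondrial UMIs, 8 without G2/M and stressed cells, and 13 to 22 with a hashed sample left out. Higher members numbered 1 without the direction rule, without thinning, at 10000 UMIs, against cells with 3 or more CXCL8 UMIs and without the HSPA1A and HSPA1B or the SOX9-AS1, MBNL2 or NFATC2 cells, and 0 to 1 with a hashed sample left out.

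Lower genes of all tested numbered 243 at a fold of 5/4, 29 at 2, 365 at a mean level of 0.1, 213 without the direction rule, 61 with thinned definition and 176 at 10% mitochondrial UMIs, and 139 to 170 with a hashed sample left out. Higher genes numbered 90, 4, 83, 33, 10 and 36 under the same alternatives, 32 at 10000 UMIs, 38 with equal weights and 22 to 40 with a hashed sample left out. Members numbered 89 at 10000 UMIs, 28 at 10% mitochondrial UMIs and 237 (20.1%) with thinned definition.

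Among genes called lower or higher, direction turned for RELB, 1.28 at 10% mitochondrial UMIs, and for HSPA1A, 0.54 without G2/M and stressed cells and 0.79 without HSPA1A and HSPA1B cells. The removal of HSPA1A and HSPA1B cells was chosen after seeing the data and acts on the counts of HSPA1A itself. Of 1598 values of 89 named genes, 188 lay outside the main interval without such a turn of direction. Counting genes that were not called, 79 values of 29 genes lay on the other side of 1. For 10 of these genes, none of them called, the main interval excluded 1, among them CCL2 at 0.64 without HTO3+HTO8, and IRF1 at 1.27 and IL32 at 1.21 at 10% mitochondrial UMIs. The causes were not tested. Each ratio is formed within hashed samples, so both states are compared inside the same sample. No paired test was run, because the labels do not make the hashed samples replicates of a group. Genes with few UMIs in the 148 members are limited by depth.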

Other observations

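Several of the lowest ratios belonged to genes close to CXCL8 on chromosome 4, a pattern looked at after the values were seen. CXCL8 lies at chr4:73740506-73743716 (GRCh38, GENCODE 29). Of the 6 tested genes that start within 2 Mb of it, 5 were lower in CXCL8-0 cells. These were ANKRD17, an ankyrin-repeat protein gene, at 0.50 (0.31 to 0.79), CXCL1 at 0.16, CXCL3 at 0.37, EREG at 0.60 and AREG at 0.47. G3BP2, a stress granule protein gene, was at 0.91 (0.75 to 1.10). Their median ratio was 0.49, beside 0.92 for the 76 other tested genes of chromosome 4, of which 4 were lower, and 0.95 for all 2888. The region holds chemokine and EGF-family ligand genes side by side, so position and kind of gene cannot be told apart here, and whether copy number of the region differed between cells was not tested.

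FN1, which encodes fibronectin and was singled out afterwards, was lower in CXCL8-0 cells, at a ratio of 0.65 (0.58 to 0.73) with no overlap between the hashed samples of both states. The epithelial list stood at 1.03 (1.00 to 1.07) in the same cells. Cells with a UMI of SOX9-AS1, MBNL2 or NFATC2, looked for afterwards, made up 34 of 148 CXCL8-0 cells (23.0%) and 137 of 1033 CXCL8-positive cells (13.3%).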
